A study of Bos taurus with 6 samples.

Results

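Vinculin (VCL), zyxin (ZYX), alpha-actinin-4 (ACTN4) and caveolin-1 (CAV1) are 4 genes of the machinery that ties cells to their matrix. They were taken by gene symbol: each probe set that the platform annotation gives one of these symbols and no other was included, which made 10 probe sets of 13292 with a single gene name (4 of 9155 genes). The arrays came from bovine bone marrow mesenchymal stem cells (MSCs), multipotent stromal cells, held in agarose gel in a defined medium, with 1 Affymetrix array for each of 6 conditions. With transforming growth factor beta 3 (TGF-beta3), a growth factor that drives MSCs towards cartilage cells, there was an array at day 21, an array at day 42 after 21 days of growth and 21 days of dynamic compression with TGF-beta3 (loaded), and an array at day 42 without compression (unloaded). Without TGF-beta3 there were arrays at days 3, 21 and 42. The labels do not say how many animals gave the cells or whether cells or constructs were pooled. Each condition has 1 array and thus no spread between replicates, and so few arrays limit how precise any value is.

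Focal adhesions are protein assemblies at which integrins, the receptors for matrix, are linked to actin filaments inside the cell. Vinculin joins the integrin-bound protein talin to actin and strengthens the link under force. Zyxin is a LIM domain protein that brings actin assembly factors to adhesions and to strained actin fibres, alpha-actinin-4 cross-links actin filaments, and caveolin-1 builds caveolae, small pits of the cell membrane that can flatten when the membrane is stretched. Agarose itself carries no natural ligand for integrins, so cells in it bind mainly to matrix that they have laid down.

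Values are the authors' linear signal per probe set. A signal of 15.1, the 40th percentile of all values, was taken as a floor: a probe set entered a comparison if either array put it above the floor, lower values were set to the floor, and a log2 difference of at least 1 (2-fold) counted as higher or lower. Where 1 side lay under the floor, the difference is a bound. "Rose" and "fell" are used for the limma test of TGF-beta3 alone. Hybridisation spikes, foreign transcripts added to each sample in fixed amount, had a median log2 signal of 12.5 on the loaded and 12.8 on the unloaded day 42 array, and of 11.4 to 11.9 on the other 4. The ratio of 3 prime to 5 prime signal, a sign of RNA and amplification quality, was 1.80 on the loaded and 2.15 on the unloaded array for GAPDH, and 7.52 and 4.95 for cyclophilin. For actin it was 0.752 loaded, 0.312 unloaded and 9.21 at day 21 with TGF-beta3, against 0.409, 9.17 and 15.9 at days 3, 21 and 42 without it. The actin ratio thus lay far apart in the day 42 comparison of TGF-beta3, and between days 21 and 42 with TGF-beta3 and days 3 and 21 without it; its part in these differences was not tested. Of 6 MSC markers, 4 to 6 lay above the floor on each array. VCAM1 was under it on all 3 arrays with TGF-beta3 and THY1 on the loaded array, while the blood cell marker CD34 was under it on all arrays except the loaded one.

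CAV1 was lower wherever TGF-beta3 was given. The signal of the brighter of its 2 probe sets was 1431 on the loaded and 1085 on the unloaded day 42 array, and 2161 at day 21 with TGF-beta3. Without TGF-beta3 it was 3958 at day 3, 3761 at day 21 and 4126 at day 42. The 3 arrays without TGF-beta3 thus lay above the 3 with it, and the groups did not overlap. Its other probe set had the same order of the 6 arrays, with signals between 732 and 2424. How many of all probe sets separate in this way was not counted, here or for ZYX and ACTN4 below.

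VCL was lowest on the 2 day 42 arrays with TGF-beta3. Its main probe set had a signal of 295 on the loaded and 118 on the unloaded array, and of 709 at day 21 with TGF-beta3, against 1037, 1031 and 566 at days 3, 21 and 42 without it. The highest of the 6 was 8.76 times the lowest. A much dimmer VCL probe set had signals of 6.25 loaded and 8.55 unloaded, both under the floor, and of 96.1 at day 21 with TGF-beta3, against 119, 61.4 and 21.1 at days 3, 21 and 42 without it. Both VCL probe sets were highest at day 3 and lowest on the 2 day 42 arrays with TGF-beta3, where the dimmer one was under the floor and gives no order between loaded and unloaded.

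ZYX was highest at day 21 with TGF-beta3 on both of its probe sets. The brighter had a signal of 293 loaded, 124 unloaded and 438 at day 21 with TGF-beta3, against 128, 151 and 96.9 at days 3, 21 and 42 without it. The dimmer had 71.9 loaded, 91.0 unloaded and 101 at day 21 with TGF-beta3, against 31.1, 28.0 and 34.5 at days 3, 21 and 42 without it. On the dimmer probe set all 3 arrays with TGF-beta3 lay above all 3 without it. On the brighter one the unloaded day 42 array lay among those without TGF-beta3.

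ACTN4 had 4 probe sets, of which the dimmest was under the floor on all 6 arrays and was not compared. The brightest had a signal of 710 loaded, 418 unloaded and 1083 at day 21 with TGF-beta3, against 1138, 327 and 319 at days 3, 21 and 42 without it. The second in brightness had 358 loaded, 159 unloaded and 251 at day 21 with TGF-beta3, against 146, 143 and 68.7. The third had 181 loaded, 307 unloaded and 172 at day 21 with TGF-beta3, against 149, 49.2 and 87.1 in the same order of days without it. On the second and the third probe set the 3 arrays with TGF-beta3 lay above the 3 without it, while on the brightest the day 3 array was the highest of all. With no replicates, no pair of neighbours in any of these orders can be set against a spread. In the cattle RefSeq annotation (assembly ARS-UCD2.0) ACTN4 has 12 transcripts, CAV1 4, and VCL and ZYX 2 each; the files do not say which of them each probe set reads.

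**Figure D1:**
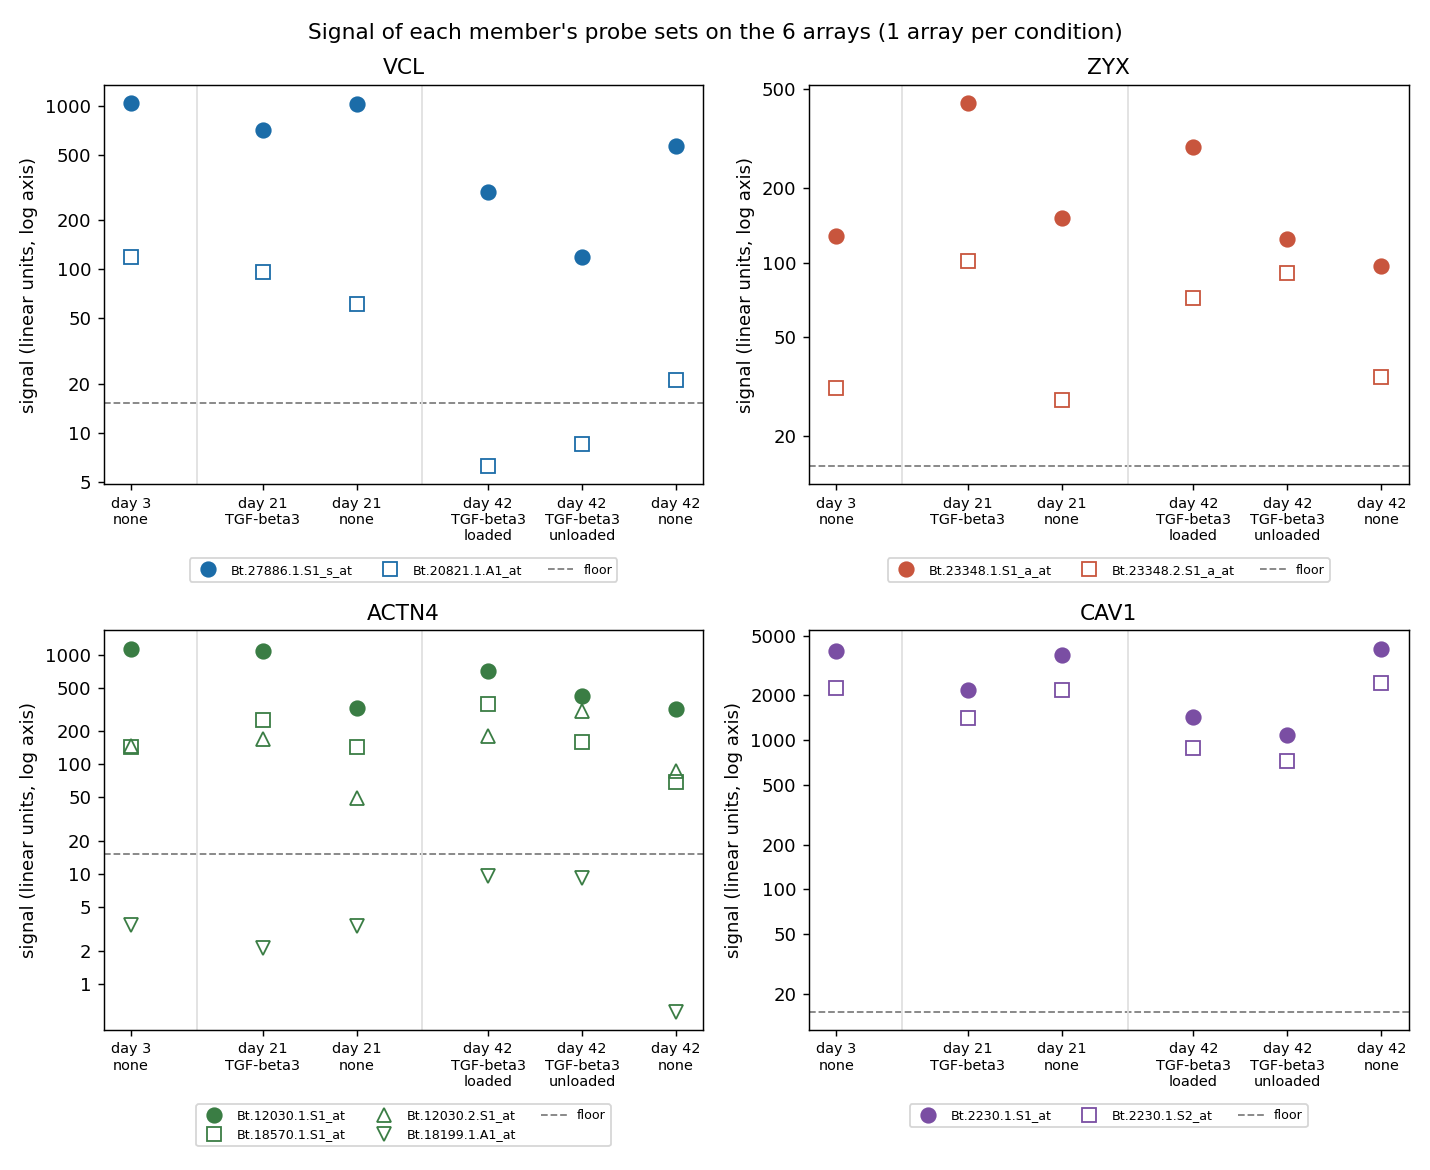
Signal (linear units on a log axis) of the 10 probe sets of VCL, ZYX, ACTN4 and CAV1 on each of the 6 arrays, 1 point per array, with the floor of 15.1 as a dashed line. CAV1 is lower on the 3 arrays with TGF-beta3, and the main VCL probe set is lowest on the unloaded day 42 array with TGF-beta3 (118).

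The comparison of loaded with unloaded constructs asked how dynamic compression altered the transcripts of cells already treated with TGF-beta3. On the brightest probe set of each gene the signal was higher in the loaded construct, at 2.49-fold for VCL, 2.36-fold for ZYX, 1.70-fold for ACTN4 and 1.32-fold for CAV1 (log2 differences of 1.32, 1.24, 0.77 and 0.40). Of the 8 that could be compared, 3 passed the 2-fold rule upwards (VCL, the brighter of ZYX and the second of ACTN4, at 2.26-fold) and 0 downwards. Over all 17448 probe sets compared, 10.2% were higher by this rule and 8.2% lower, a split of 15.7% and 3.18% when the arrays were scaled on the spikes. These values have no replicate check, so no p-value can be given, and the genes were chosen with results of this comparison known, so the count is a description. Of all probe sets, 5.73% had a difference at least as high as that of VCL, 6.61% as high as the brighter one of ZYX and 28.3% as high as the brighter one of CAV1.

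**Figure D2:**
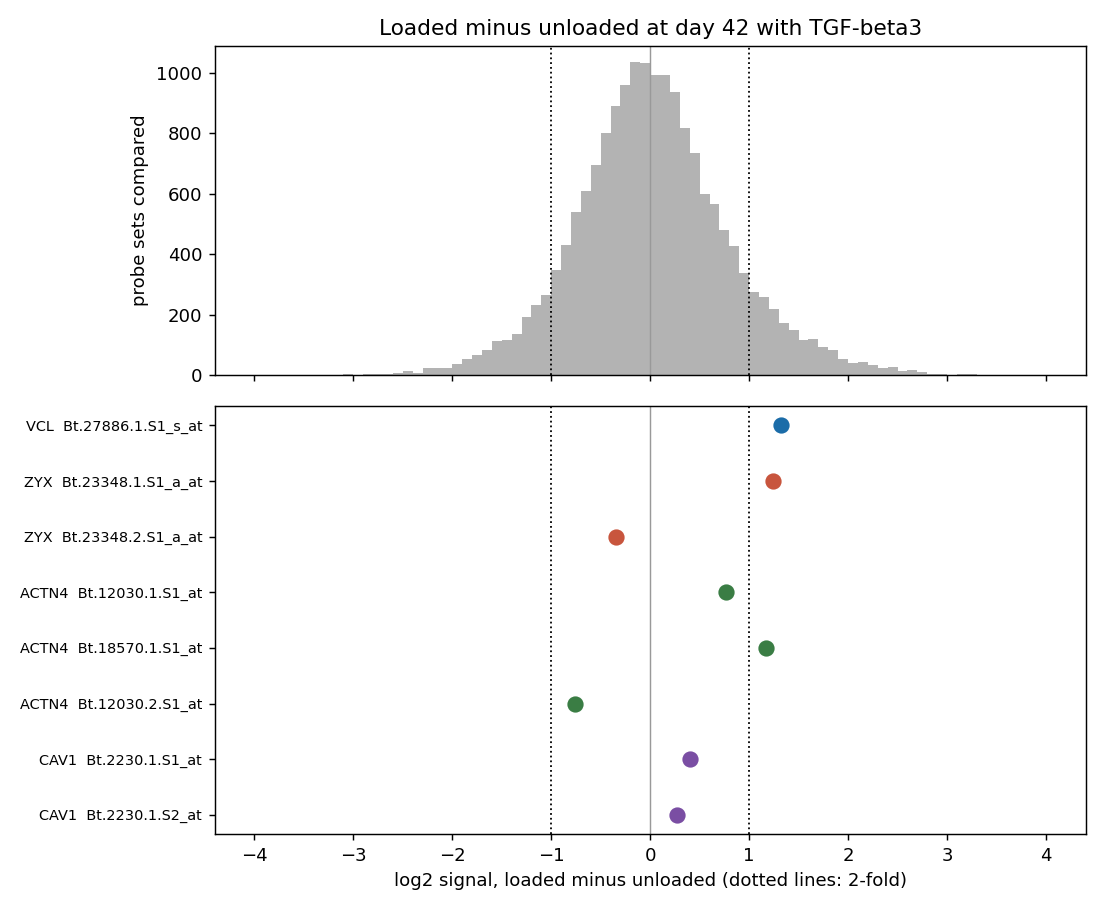
The upper panel counts the 17448 probe sets compared by their log2 difference, loaded minus unloaded at day 42 with TGF-beta3, and the lower panel shows the 8 comparable probe sets of the 4 genes on the same axis, each gene from its brightest probe set down. VCL, ZYX and ACTN4 each have a probe set past the dotted 2-fold line, and ZYX and ACTN4 each also have one below 0.

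Probe sets of the same gene did not all move the same way. The dimmer ZYX probe set was lower in the loaded construct by log2 -0.34, and the third ACTN4 probe set by -0.76, while both probe sets of CAV1 were slightly higher (0.40 and 0.27). Averaged over its probe sets, ZYX was higher by log2 0.45 and ACTN4 by 0.39. Across the array such disagreement was common in this comparison. Among 1609 genes with at least 2 probe sets above the floor on both arrays, the differences of the 2 brightest lay a median of log2 0.54 apart and had opposite signs in 42.1%. Of the 100 genes whose brightest probe set was at least 2-fold higher in the loaded construct, the second was also at least 2-fold higher in 17% and was lower in 40%. For TGF-beta3 at day 21 the same agreement was 55.3% of 161 genes. The 2.36-fold of ZYX thus rests on 1 of 2 probe sets, and that of VCL on the only one of its pair above the floor.

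**Figure D3:**
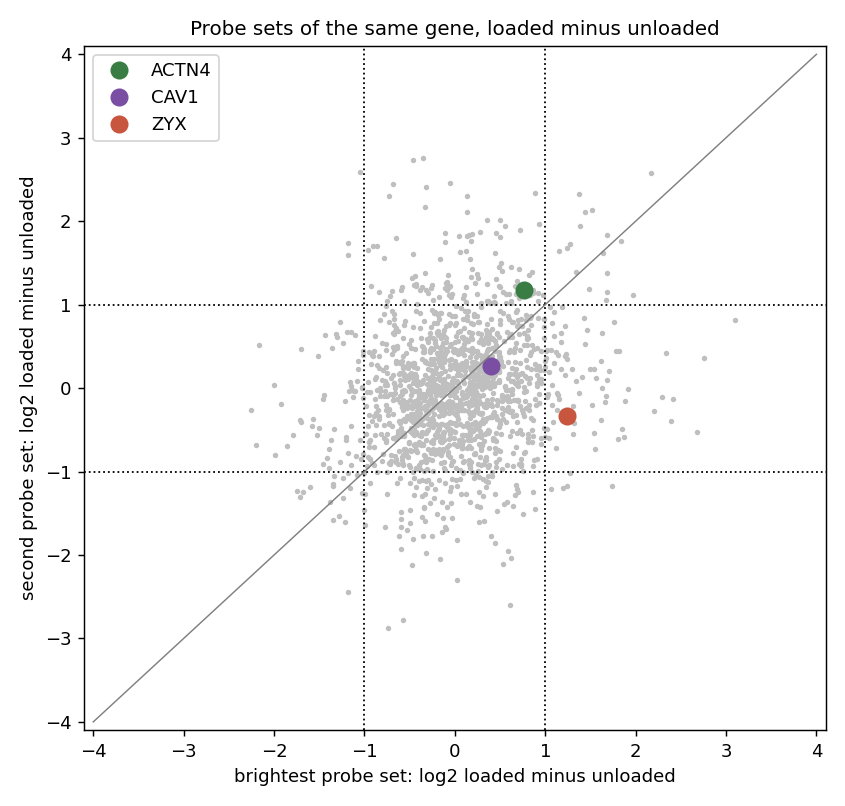
Each grey point is 1 of 1609 genes, with the log2 difference, loaded minus unloaded, of its brightest probe set across and of its second probe set upwards; the diagonal marks equal values and the dotted lines 2-fold. ACTN4 and CAV1 lie on the upper right and ZYX on the lower right; VCL is not drawn because its second probe set was under the floor.

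Among the partners of these proteins in focal adhesions, a list of 66 genes of which 41 were on the array by name and 39 could be compared, 3 were at least 2-fold higher in the loaded construct and 2 were lower. The median log2 difference was 0.24, beside -0.04 over all 7703 genes compared, of which 8.41% were higher and 7.41% lower. Talin 1 (TLN1), which binds integrins and vinculin, had a signal of 274 loaded and 118 unloaded (2.32-fold). The LIM protein CSRP1 had 134 loaded and 51.2 unloaded (2.61-fold), and the adhesion protein tensin 1 (TNS1) 38.7 loaded and 18.7 unloaded. Focal adhesion kinase (PTK2), the tyrosine kinase that signals from adhesions, was lower, at 145 loaded and 293 unloaded, as was the parvin PARVB, at 16.5 loaded and 38.0 unloaded. ACTN1, the other non-muscle alpha-actinin, had 783 loaded and 460 unloaded (1.70-fold), under the 2-fold rule like the brightest probe set of ACTN4.

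The related lists had few genes past the 2-fold rule with loading, against the same 8.41% higher and 7.41% lower over all genes. Of 31 non-muscle actin genes, the myosin heavy chain MYH10 was higher, at 138 loaded and 37.3 unloaded (3.70-fold), and the actin-severing cofilin CFL2 was lower, at 44.4 loaded and 127 unloaded; the list's median was log2 -0.03. Of 7 caveola genes, the membrane-cutting dynamin DNM2 was at least 2.41-fold lower, as it lay under the floor in the loaded construct, and 0 were higher, with a median of -0.30. The caveola gene EHD2 was higher by just under the rule (log2 0.999, with 352 loaded and 176 unloaded). CAV2, the partner of CAV1 in caveolae, had 193 loaded and 190 unloaded. Of 11 genes known as targets or parts of the SRF and YAP pathways, which read actin state and cell stretch, the immediate early factor EGR1 was lower (118 loaded and 309 unloaded) and 0 were higher, with a median of -0.14. Markers of other cells stood as follows. The summed signal of 6 smooth muscle markers was 1960 loaded and 1437 unloaded, that of 6 fat cell markers 732 and 923, and that of 6 endothelial markers 292 and 243, with VWF, CDH5 and KDR under the floor on both arrays. Single markers past the 2-fold rule were few. The muscle filament gene DES was 3.17-fold lower (20.4 loaded and 64.6 unloaded). The endothelial receptor TEK was at least 3.20-fold higher (48.4 loaded, and under the floor unloaded). The 5 cartilage cell markers measured summed to 33862 loaded and 35489 unloaded. Of them only COL9A1 passed, at 2.25-fold higher (925 loaded and 411 unloaded). No MSC or blood cell marker compared passed, with sums of 2225 loaded and 1794 unloaded for MSCs and 73.2 and 88.6 for blood cells. For all these markers their part in the differences was not tested.

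**Figure D4:**
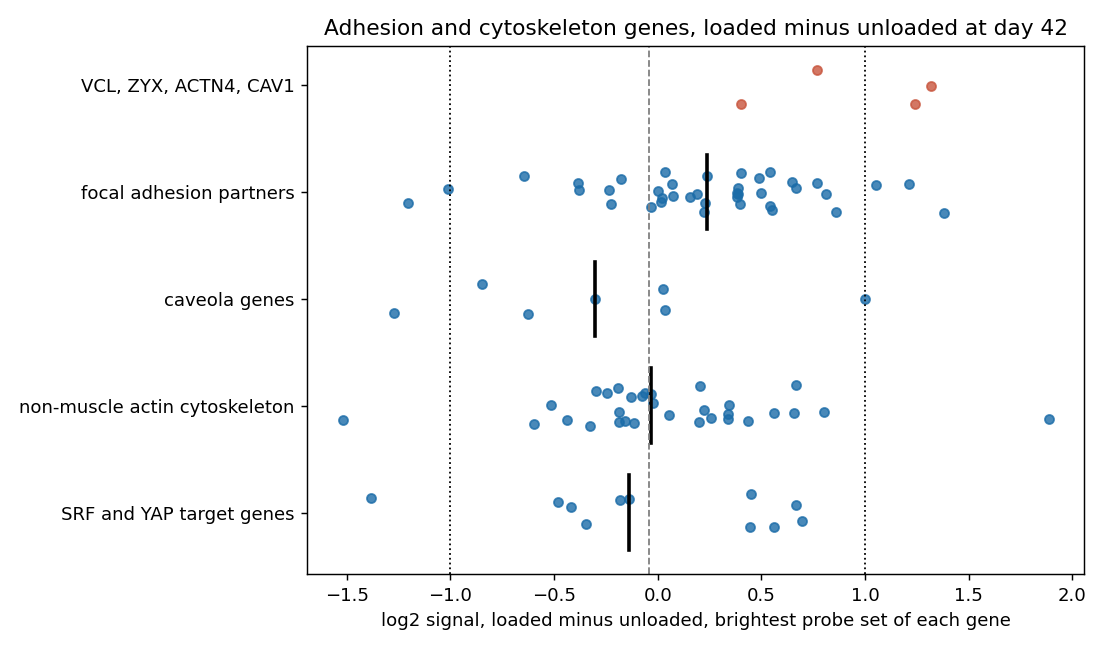
Log2 difference, loaded minus unloaded at day 42, of the brightest probe set of each gene, for VCL, ZYX, ACTN4 and CAV1 (top) and for 4 lists of related genes. Black bars are list medians, the dashed line is the median of all genes (-0.04) and dotted lines mark 2-fold; most list members lie between the dotted lines.

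TGF-beta3 went with lower CAV1 and VCL and with higher ACTN4. The test set 2 arrays with TGF-beta3 against 2 without it, a pair at day 21 and a pair at day 42, using limma with a term for day. Of the 9 probe sets tested, 2 rose, both of ACTN4, and 3 fell, namely the 2 of CAV1 and the brighter of VCL. Over all 14839 probe sets tested 5.84% rose and 7.33% fell, a split of 3.23% and 6.68% under median centring and of 1.45% and 8.36% when scaled on the spikes. For CAV1 the brighter probe set differed by log2 -1.36 ± 0.36 (mean and SE, adjusted p = 0.00618 by limma) and the other one by -1.18 ± 0.35 (adjusted p = 0.0149 by limma). The VCL probe set had -1.40 ± 0.38 (adjusted p = 0.00766 by limma). For ACTN4 the brightest probe set had 1.06 ± 0.37 (adjusted p = 0.0497 by limma) and the third 1.81 ± 0.56 (adjusted p = 0.0218 by limma).

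These calls depended on the settings of the fit. With 1 residual degree of freedom the standard errors rest mainly on the spread pooled over probe sets. In this fit that spread is how far the TGF-beta3 difference at day 21 lay from that at day 42, as no condition has a replicate. The p-values thus do not measure variation between cultures. Without the variance trend 0 of the 9 passed by limma (5 at an unadjusted p under 0.05), and without the day term also 0 (4). The ACTN4 and VCL calls were lost under median centring and under scaling on the spikes, where those of CAV1 held. The VCL difference was larger there, at a mean of log2 -1.64 and -2.21, so the lost call is not a smaller fall (adjusted p = 0.0677 and 0.0839 by limma). When the loaded array stood in for the unloaded one, VCL no longer passed (-0.74, adjusted p = 0.118 by limma; 4.2e-10 to 0.878 over the alternatives run). In that fit both CAV1 probe sets still passed, the third of ACTN4 did not, and the second of ACTN4 and the brighter of ZYX did (for ZYX 1.57, adjusted p = 0.00439 by limma; 0.00139 to 0.969 over the alternatives run). In fits without the day term that left out 1 array, 0 of the 9 were called without the day 21 or without the day 42 array lacking TGF-beta3 (2 and 3 at an unadjusted p under 0.05). Without the unloaded day 42 array 2 were called, the brightest of ACTN4 and the brighter of ZYX, both upwards, and VCL had log2 -0.11. Without the day 21 array with TGF-beta3 the 3 that fell were called along with the third of ACTN4.

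ZYX did not pass in the fit over both days. Its brighter probe set was higher by log2 0.95 ± 0.49 (adjusted p = 0.218 by limma) and its dimmer one by 1.63 ± 0.72 (adjusted p = 0.131 by limma). The second ACTN4 probe set had 1.01 ± 0.53 (adjusted p = 0.219 by limma), and the dim VCL one 0.08 ± 0.69 (adjusted p = 0.954 by limma).

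The sizes on the 2 days were unlike for most of these probe sets. At day 21, VCL was lower with TGF-beta3 by log2 -0.54 on its main probe set and CAV1 by -0.80, both under 2-fold, while 4 of the 9 passed the 2-fold rule upwards, both of ZYX (2.91-fold and 3.62-fold) and the brightest and the third of ACTN4 (3.31-fold and 3.50-fold). At that day 13.3% of 15466 probe sets were higher and 15.7% lower, or 9.43% and 22.8% when scaled on the spikes. At day 42, VCL was 4.78-fold lower with TGF-beta3 and the CAV1 probe sets were lower by log2 -1.93 and -1.73, which made 3 of 9 probe sets, and 3 were at least 2-fold higher, the dimmer of ZYX (2.64-fold) and the second and the third of ACTN4 (2.31-fold and 3.52-fold). The brighter ZYX probe set, 2.91-fold higher at day 21, was 1.28-fold higher at day 42, and the brightest of ACTN4 went with it (3.31-fold and 1.31-fold).

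The day 42 pair differed in scale. Its spikes were log2 1.32 higher on the array with TGF-beta3, and the median of all probe sets 0.21 higher. Of 16874 probe sets 24.5% were higher and 16.2% lower, but 14.7% and 28.7% under median centring and 6.35% and 49.99% when scaled on the spikes. Under those scalings the differences of VCL and CAV1 were larger (log2 -2.84 and -2.51, or -3.58 and -3.25), and the count of members at least 2-fold higher was 1 and 0. The difference of the brighter ZYX probe set changed from log2 0.36 to -0.23 and -0.96, and that of the brightest of ACTN4 from 0.39 to -0.20 and -0.93. At day 21, where the spikes were 0.30 higher with TGF-beta3, no such change of sign was seen in these 2 probe sets.

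**Figure D5:**
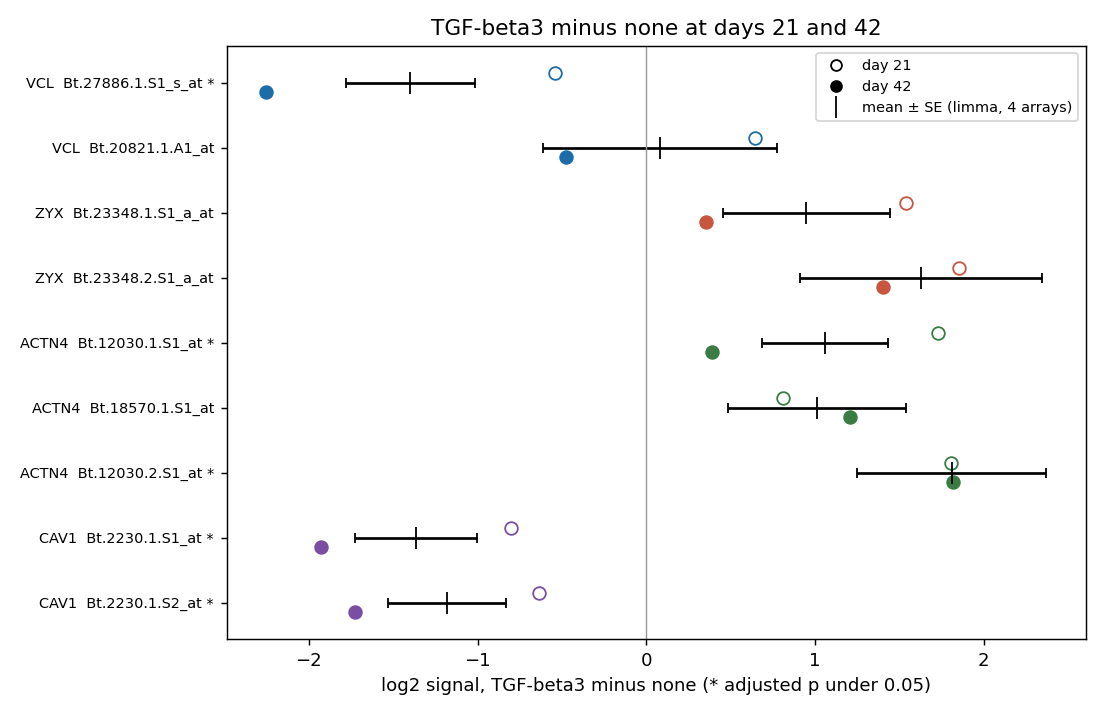
Log2 difference, TGF-beta3 minus none, of the 9 tested probe sets (each gene from its brightest down) at day 21 (open) and day 42 (filled), with the limma mean and its standard error over 4 arrays in black. Starred probe sets passed at an adjusted p under 0.05: 2 of ACTN4 rose, and both of CAV1 and 1 of VCL fell.

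Counting both directions, other adhesion genes under TGF-beta3 were called about as often as all genes. Of 37 focal adhesion partners tested, 4 rose and 1 fell, a median log2 difference of 0.32 beside 0.13 over all 6835 genes tested, of which 7.11% rose and 7.7% fell. The LIM protein CSRP2 had 3.40 ± 0.36 (adjusted p = 1.4e-10 by limma), with signals of 2022 with TGF-beta3 and 182 without it at day 21. EVL, of the family of actin assembly factors that zyxin binds, had 2.29 ± 0.56 (adjusted p = 0.00289 by limma), with signals of 255 with TGF-beta3 and 47.6 without at day 21 and of 284 and 63.6 at day 42. PARVB (2.16) and palladin (PALLD, 1.72), an actin-bundling protein, also rose, and the LIM protein FHL1 fell (-1.64 ± 0.36, adjusted p = 0.000849 by limma). At day 21 alone 7 of 37 partners were at least 2-fold higher and 3 lower, beside 14.3% and 14% of 6938 genes, and at day 42 13 of 39 were higher and 7 lower, beside 25.5% and 15.7% of 7566 genes. On single days the highest were CSRP2 (log2 3.48) and PARVB (at least 2.99) at day 21 and CSRP2 (3.31) and PTK2 (2.39) at day 42, and the lowest the adaptor SORBS2 (-1.82) and FHL1 (-1.25) at day 21 and FHL1 (-2.04) and TLN1 (-1.34) at day 42. PTK2, lower with loading, was 293 with TGF-beta3 and 56.0 without it at day 42. TLN1 was 118 with TGF-beta3 and 299 without at day 42, and ACTN1 460 and 983.

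In the caveola list, CAV2 and PACSIN2, a membrane-bending protein of caveolae, fell and PACSIN3 rose, out of 7 tested, with a median of log2 0.01. CAV2, which lies next to CAV1 among the protein-coding genes of the annotation, had -1.98 ± 0.37 (adjusted p = 6.3e-05 by limma). Its signal was 254 with TGF-beta3 and 1087 without it at day 21, and 190 and 689 at day 42. At day 3 it was 351, so that CAV2 differed from CAV1 between days 3 and 21 without TGF-beta3. Fat cells are known for dense caveolae, and the summed signal of 6 fat cell markers was 465 with TGF-beta3 and 13575 without it at day 21, 923 and 16245 at day 42, and 5063 at day 3, where CAV1 was as bright as at day 21 without TGF-beta3. The sum of 6 blood cell markers was 39.2 with TGF-beta3 and 415 without it at day 21, and 88.6 and 562 at day 42. Of the endothelial markers, VWF, CDH5 and KDR were under the floor on all 6 arrays, and the summed signal of the 6 was 421 with TGF-beta3 and 129 without it at day 21, and 243 and 63.3 at day 42. Most of that sum was ERG (388 with TGF-beta3 and 80.2 without it at day 21, and 210.2 and 30.3 at day 42), while TEK was 31.0 and 36.0 at day 21 and under the floor against 21.8 at day 42. The 5 cartilage cell markers measured all rose by limma, with a summed signal of 22178 with TGF-beta3 and 3938 without it at day 21, and 35489 and 4335 at day 42. In such bulk samples fewer cells of a type and less RNA per cell cannot be told apart, and the part of these markers in the CAV1 and CAV2 levels was not tested.

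Of 31 non-muscle actin genes, gelsolin (GSN), which severs actin filaments, fell (-2.39 ± 0.34, adjusted p = 4.3e-07 by limma) and 0 rose, with a median of log2 0.34. Of 11 SRF and YAP pathway genes, 4 rose (TAGLN, ACTA2, CNN1 and FOS) and EGR1 fell, with a median of 1.38; TAGLN, ACTA2 and CNN1 are also 3 of the 4 smooth muscle markers that rose. The summed signal of the 6 smooth muscle markers was 5265 with TGF-beta3 and 859 without it at day 21, and 1437 and 244 at day 42. VCL is known as an SRF target in mouse and human cells. Its main probe set fell, a call that depended on the settings of the fit, while its dim one had log2 0.08. The defining smooth muscle marker MYH11 was under the floor on all 6 arrays, and the part of these markers in the members' levels was not tested.

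Across days in culture without TGF-beta3 the members went different ways, as did probe sets of the same gene. From the day 3 to the day 21 array, ACTN4 was 3.48-fold lower at day 21 on its brightest probe set and 3.02-fold lower on the third, while VCL, ZYX and CAV1 differed by at most log2 0.23 on their brightest ones. These 2 of 9 probe sets were the only members at least 2-fold lower and 0 were higher. Of all 15054 compared 5.2% were lower and 7.18% higher (2.07% and 19.8% when scaled on the spikes). The second ACTN4 probe set differed by only log2 -0.02, and the dim VCL one was 1.94-fold lower at day 21, just under the rule. Between days 21 and 42, the dim VCL probe set was 2.91-fold lower at day 42 and the second of ACTN4 2.09-fold lower, 2 of 9, and 0 were higher. Of 14737 probe sets 10.1% were lower and 3.29% higher, with splits of 5.81% and 4.99% under quantile normalization, 5.60% and 9.01% under median centring and 15.2% and 2.61% when scaled on the spikes.

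With TGF-beta3, 4 of the 9 probe sets were at least 2-fold lower at day 42 unloaded than at day 21, and 5 were under 2-fold, among them the third of ACTN4 (log2 0.83). VCL was 5.99-fold lower, at 118 against 709, and at least 6.34-fold lower on its dim probe set; ZYX was 3.53-fold lower on its brighter and ACTN4 2.59-fold lower on its brightest probe set. Of all 16859 probe sets 14.1% were lower and 18.1% higher, and of the 9 none was at least 2-fold higher. CAV1 was 1.99-fold lower, just under the 2-fold rule. The split of all probe sets was 20.8% and 12.1% under median centring and 49.8% and 3.27% when scaled on the spikes, which differed by log2 1.19.

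The loaded construct differed less from day 21 than the unloaded one did on 7 of the 9 probe sets, as did 55.7% of 15526 probe sets in all. A tie at the floor counted as not differing less, as on the dim VCL probe set. On the second of ACTN4 the loaded array lay above day 21 (log2 0.51) and the unloaded one below it (-0.67). Against day 21 with TGF-beta3, 2 of 9 were at least 2-fold lower in the loaded construct, both of VCL (log2 -1.26, and at least 6.34-fold), and 0 were higher. The brighter ZYX probe set was lower by log2 -0.58, the brightest of ACTN4 by -0.61 and the brighter of CAV1 by -0.59. Of 16605 probe sets 9.97% were lower and 15.1% higher, with splits of 12.6% and 12.5% under quantile normalization, 18.8% and 9.03% under median centring and 36.4% and 4.40% when scaled on the spikes. The loaded and the unloaded array are here set against the same day 21 array, and the loading comparison shares the unloaded array with that of TGF-beta3 at day 42, so a value on a shared array enters both. Which of the arrays sets the difference was not tested.

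The 4 genes did not share 1 pattern over the 6 arrays. Pearson's r of log2 signal is given as a description over 6 arrays that share a scaling but differ in TGF-beta3, day and loading. It was 0.88 between VCL and CAV1, 0.61 between ZYX and ACTN4 and 0.24 between VCL and ACTN4. The other values were 0.06 between VCL and ZYX, -0.09 between ACTN4 and CAV1 and -0.38 between ZYX and CAV1. Among 5409 other genes above the floor on all arrays, those most like VCL were LAMC1 (r = 0.99), TASOR and TMEM183A. LAMC1, a laminin chain, had 760 loaded, 334 unloaded and 1345 at day 21 with TGF-beta3, against 2205, 1925 and 1302 at days 3, 21 and 42 without it. Those most like CAV1 were NID1, EOGT and RNASEH2B. NID1, the basement membrane protein nidogen 1, had 53.3 loaded, 15.2 unloaded and 176 at day 21 with TGF-beta3, against 1468, 1487 and 1606 without it. ECT2, TENT4A and UFM1 were most like ZYX, and PPP2R5C, GGCX and TXNDC5 most like ACTN4. With so few arrays high values are common: r was at least 0.9 for 165 genes with VCL, 275 with CAV1, 56 with ZYX and 29 with ACTN4.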

How the data were processed

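Per the labels' protocols, RNA was extracted in TRIZOL-chloroform, amplified with ribo-SPIA and hybridised to 1 array per condition. The submitters' processing notes name MAS5, with no version, and what the authors deposited is a linear signal intensity for each probe set. The trimmed mean was 150 on every array, so the authors' scaling was kept.

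After 112 controls were left out, 24016 probe sets remained. Names came from the platform annotation, and the Entrez identifiers of 13263 were found in RefSeq with the same symbol. Each gene is represented by its brightest probe set (mean of log2 signal), and probe sets of a member are told apart by brightness. A log2 scale with the floor described above was used for all differences. The limma test (limma 3.58.1, R 4.3.3) used a day term, a variance trend and Benjamini-Hochberg adjustment over 14839 probe sets (2 or more of the 4 arrays above the floor). It and the size rule were tested on simulated data. For limma the simulated spread was the same for every probe set and the added difference the same on both days. That simulation thus cannot say how the calls reported here hold. Python 3.11.15, numpy 2.4.6 and pandas 2.3.3 were used.

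Members, lists and tests were chosen with earlier results of these data known. Named were all members, of each list the 2 highest and 2 lowest past 2-fold, up to 3 limma calls per direction, set partners (ACTN1, TLN1, CAV2; LPP and TRIP6 had no single-gene probe set here), and the 3 genes most alike. For single days this is printed for the adhesion list only. No sequence tables were used. Results of 1 further list of genes are not reported here.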

Additional observations from a re-analysis of the deposited data

Results flagged for a closer look

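Some probe sets had opposite signs in the same contrast under a second condition, which was not tested because each side is 1 pair of arrays. The dim VCL probe set was lower with TGF-beta3 at day 42 by a bound of log2 -0.48 and higher at day 21 by 0.65. Between days 21 and 42, both CAV1 probe sets were lower at day 42 with TGF-beta3 (log2 -0.99 and -0.94) and slightly higher without it (0.13 and 0.15). The dimmer ZYX probe set did likewise, at -0.15 with TGF-beta3 and 0.30 without it. The CAV1 and ZYX comparison with TGF-beta3 rests on the unloaded array whose spikes were log2 1.19 above those of day 21.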

How the results depend on the processing

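Loading: the count of members at least 2-fold higher was 3 under every scaling and floor run except spike scaling (4), 4 at a 1.5-fold threshold and 0 at 3-fold, where VCL (log2 1.32) and ZYX (1.24) no longer passed; 1 was lower at 1.5-fold, where ACTN4 (0.77) passed. ACTN4 also passed when scaled on the spikes (1.09), and ZYX did not as the mean of its probe sets (0.45). Of all probe sets, 21.2% were higher and 19.7% lower at 1.5-fold, and 3.50% and 2.27% at 3-fold. With the floor at the 25th percentile these shares were 15.0% and 13.2%, at the 60th 5.62% and 3.88%, and at 100 3.82% and 2.67%. TGF-beta3 at day 21: members lower were 1 under quantile normalization and under spike scaling and 2 at 1.5-fold (0 as reported). Of all probe sets 13.9%, 22.8% and 26.4% were lower in these settings, in that order. Members higher were 2 with the floor at 100, chosen after the data were seen, beside 9.47% of all probe sets. At day 42 members higher were 1 under median centring, with the floor at 100 or at 3-fold. They were 0 under spike scaling, where the second ACTN4 probe set turned to log2 -0.11. Of all probe sets 14.7%, 13.4%, 12.2% and 6.35% were higher in these settings, in that order. Days without TGF-beta3, with the share of all probe sets in brackets: from day 3 to 21, 1 was lower with the floor at 100 (2.62%). From 21 to 42, 1 was lower under quantile normalization (5.81%), median centring (5.60%), the 60th percentile floor (4.55%) and the added floor value (7.31%). At 1.5-fold 4 were lower (22.6%), and 0 at 3-fold (2.86%) and with the floor at 100 (2.36%). Under median centring (9.01%) and at 1.5-fold (10.6%) 1 was higher. Days with TGF-beta3, unloaded, with the same shares in brackets: 8 were lower under spike scaling (49.8%), and 7 lower (23.9%) and 1 higher (31.1%) at 1.5-fold. For loaded against day 21, 7 were lower under spike scaling (36.4%) and 5 at 1.5-fold (20.4%). There 1 was lower with the floor at the 60th percentile (7.69%), at 100 (6.15%) or at 3-fold (3.07%). In the limma fit, members that rose (2) and fell (3) were 0 and 2 under median centring and spike scaling, 0 and 0 without the variance trend or the day term, 1 and 3 with a robust prior, 1 and 2 with the loaded array added, 3 and 2 with it in place of the unloaded one, and 0 to 2 and 0 to 3 with 1 array left out. All calls, 1954 as reported, were 1030 without the trend, 570 without the day term and 340 to 3773 with 1 array left out. Fewer arrays and no day term change the fit itself; other causes were not tested. The labels number no replicates, so no pairing by culture or animal could be made. The fit pairs the 2 arrays of a day through its day term. Dim probe sets are limited by the floor.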
